A study of Sus scrofa with 5 samples.

Results

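S100 genes were followed in bulk RNA sequencing of a pig kidney transplanted into a human recipient, the second case of the study. The 8 genes on the list were S100A1, S100A2, S100A4, S100A6, S100A10, S100A11, S100A14 and S100A16, chosen by name and with earlier results of these libraries known. Of the 8, 7 had a row among the 15235 gene symbols counted over the pig genome. S100A16 had a row only among the 59385 symbols counted over the human genome and is described from there. The choice rested on the biopsies against the controls and on time in the pig table, so those values of the 7 genes are given as a description, with no test.

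The 2 control libraries (replicates 1 and 2) came from control kidney that was not transplanted, at 0 h, and each of the 3 xenograft libraries was a single biopsy, taken at 12, 24 or 48 h. The labels give no genotype, age or drug treatment for either group. No label says that the controls came from separate animals, the biopsies came from 1 xenograft, and p-values therefore measure only the spread between these libraries. Per library, 56129926 to 71108823 counts fell on pig symbols and 13386788 to 19738224 on human symbols. The mitochondrial share of the pig counts was 21.9% and 33.4% in control replicates 1 and 2 and between 11.8% and 14.5% after transplantation. Kidney markers were present in every library, with the thick limb gene UMOD at 2544 CPM or more and the water channel gene AQP2 at 82.5 or more. The tubular receptor gene LRP2 stood at 3354 and 3118 CPM in the controls against 470, 1054 and 873 in the biopsies. CPM here are counts scaled to a common library size, after TMM factors that even out the libraries' composition.

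S100 proteins are small calcium-binding proteins with a pair of EF-hand motifs. Most work as dimers that open a binding surface when calcium rises and then attach to other proteins, such as annexins, cytoskeletal proteins and transcription factors. In the kidney, S100A6 and S100A10 are known from damaged or regenerating tubules, while S100A4 is known from fibroblasts and from leukocytes. The word epithelial fits several of these genes as background, but bulk tissue does not show which cells held the RNA. In bulk tissue, more cells of a type and more RNA per cell cannot be told apart. Levels are compared within a gene and not between genes, because transcript lengths were not used.

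All 7 genes were higher in each of the 3 biopsies than in either control. The same held for 33.7% of the 12620 pig genes kept after a filter on low counts, while 32.6% lay below both controls in every biopsy. Nothing is read from the members' count because the choice used this contrast. The ratios of mean CPM ranged from 1.79-fold for S100A1 to 63.02-fold for S100A2, with a median log2 ratio of 1.497 against 0.03 over all genes kept. Every one of the 7 genes had at least 40 counts in every library, so none passed the filter through the biopsies alone. Summed, their share of all pig counts was 0.0458% and 0.0419% in the control kidney and 0.256%, 0.215% and 0.221% at 12, 24 and 48 h. S100A6 supplied 12.8% and 13.9% of the counts on the 7 genes in the controls against 37.3%, 44.7% and 44.8% in the biopsies. Proximal tubule markers moved the other way, summing to 20123 and 21097 CPM in the controls against 7207, 9048 and 7152 in the biopsies. By edgeR 8 of 8 were lower, against 19% of all genes tested, and 7 without either control or with library totals alone. Of 5 podocyte markers tested, SYNPO was higher (1.53-fold, edgeR adjusted p = 0.0263) and 4 were lower, though fewer with either control left out. Their part in the S100 values was not tested.

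**Figure D1:**
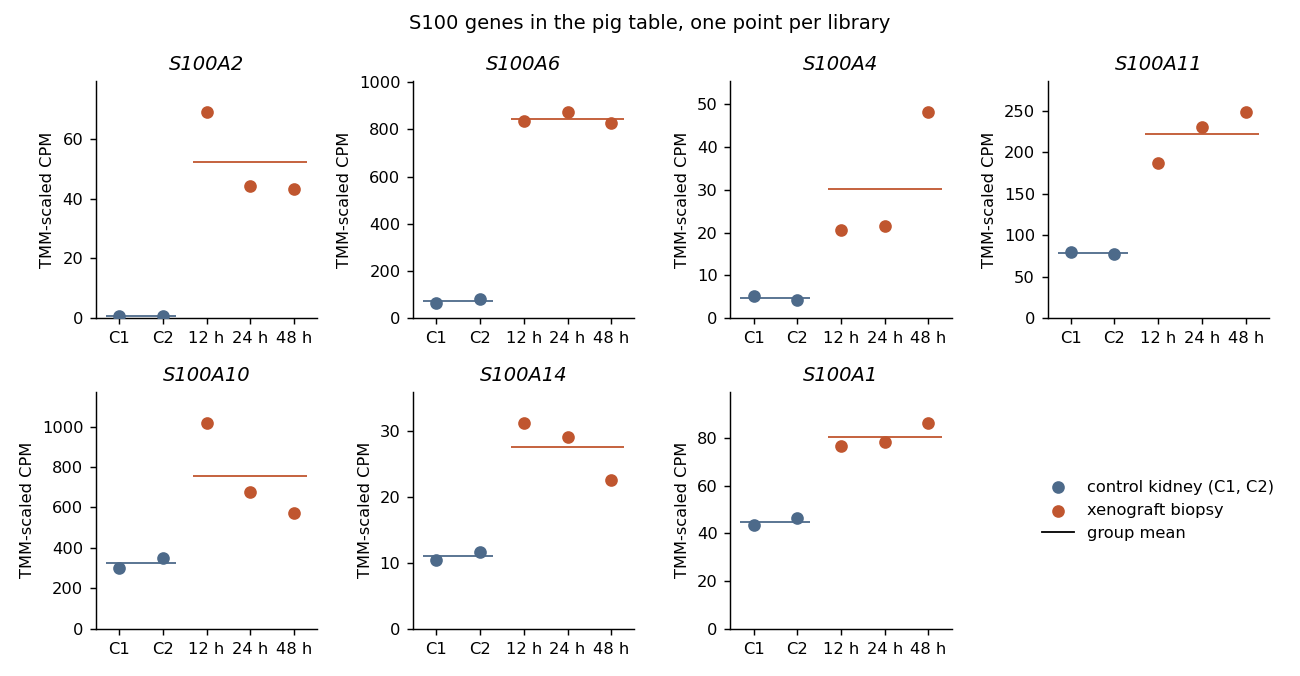
TMM-scaled CPM (y axis, linear, from 0) of each of the 7 S100 genes in the 2 controls (C1, C2) and the biopsies at 12, 24 and 48 h, 1 point per library, with lines at the group means. In every panel the 3 biopsies lie above both controls, and S100A2 goes from below 1 CPM to between 43.2 and 69.0.

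S100A2 is best known from basal cells of stratified epithelia. It stood at 0.887 and 0.768 CPM in the controls, from 53 and 40 counts. In the biopsies it stood at 69.0 CPM at 12 h, 44.3 at 24 h and 43.2 at 48 h, from 4990, 3225 and 2900 counts. Both controls were close to the bottom of the scale, the 12 h biopsy was the highest, and the groups were far apart. The biopsies averaged 52.2 ± 14.6 CPM (SD, n = 3) against 0.828 ± 0.0843 (SD, n = 2). Here and for the genes below, the SD of the biopsies spans different times of the same graft and includes any change with time. By ratio S100A2 ranked 25th of the 12620 genes kept. Genes with 0 counts in both controls, such as S100A3, UPK2, WNT7A and ARG1, have no finite ratio and were ranked above it.

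S100A6, also called calcyclin, was first described in cells entering the cell cycle. Its level was 64.5 and 79.8 CPM in the controls and 835, 874 and 829 CPM at 12, 24 and 48 h. The 3 biopsies were nearly level with each other and the groups did not overlap. The ratio of means was 11.7-fold, from 72.1 ± 10.8 CPM (SD, n = 2) to 846 ± 24.6 (SD, n = 3). Taking either control alone moved its log2 ratio from 3.55 to 3.41 or 3.71.

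S100A4, also called fibroblast-specific protein, binds non-muscle myosin and is found in motile cells. It was at 5.26 and 4.36 CPM in the controls and at 20.6, 21.5 and 48.2 CPM at 12, 24 and 48 h. The first 2 biopsies were close together and the 48 h biopsy stood well above them. The ratio of means was 6.26-fold, from 4.81 ± 0.635 CPM (SD, n = 2) to 30.1 ± 15.7 (SD, n = 3), and by time it was 4.28-fold, 4.47-fold and 10.03-fold. Markers of fibroblasts and smooth muscle were also higher, summing to 1655 and 1221 CPM in the controls and 2752, 4638 and 7902 CPM at 12, 24 and 48 h. Their sum rose already from 12 to 24 h, where S100A4 was nearly level. By edgeR 9 of those 11 markers were higher, against 18.5% of all genes tested, but 4 with control replicate 1 left out, 1 with control replicate 2 left out and 5 with the 24 h biopsy left out. With library totals alone it was 6. COL3A1, the type III collagen gene, went from 460 and 313 CPM in the controls to 948, 1573 and 3316 in the biopsies. Leukocyte markers of the pig table summed to 449 and 505 CPM in the controls against 863, 992 and 1170 in the biopsies. CD79A alone supplied most of that sum in every library, at 356 and 403 CPM against 532, 575 and 703. PTPRC, another of these markers, stood at 19.2 and 20.4 CPM against 12.8, 13.1 and 22.8. Of 13 tested, 6 were higher and 3 lower by edgeR, against 18.5% and 19% of all genes, with 0 lower without either control or with library totals alone. CD163, a scavenger receptor gene of macrophages, went from 13.2 and 14.5 CPM to 183, 245 and 247, while the T cell genes CD3E, CD3D and CD2 were the 3 lower ones. The part of these cells in the S100A4 values was not tested.

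S100A11 binds annexin A1 and takes part in membrane repair. Its level was 80.0 and 77.6 CPM in the controls and 188, 231 and 249 CPM at 12, 24 and 48 h, so the controls were almost equal and each biopsy was above the one before. The ratio of means was 2.82-fold, from 78.8 ± 1.71 CPM (SD, n = 2) to 222.6 ± 31.5 (SD, n = 3).

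S100A10 differs from its relatives in that it no longer binds calcium. It pairs with annexin A2 in a complex at the cell membrane that also binds plasminogen. It was at 301 and 352 CPM in the controls and at 1019, 678 and 574 CPM at 12, 24 and 48 h. The 12 h biopsy was the highest and the 48 h biopsy the lowest of the 3, still above both controls. The ratio of means was 2.32-fold, from 326 ± 35.9 CPM (SD, n = 2) to 757 ± 233 (SD, n = 3), and it shrank from 3.12-fold at 12 h to 1.76-fold at 48 h.

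S100A14, an epithelial member of the family, had 10.4 and 11.6 CPM in the controls and 31.2, 29.1 and 22.5 CPM at 12, 24 and 48 h. Its biopsies also descended with time without reaching the controls. The ratio of means was 2.52-fold, from 10.97 ± 0.859 CPM (SD, n = 2) to 27.6 ± 4.52 (SD, n = 3).

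S100A1, known for its role in calcium handling of heart muscle, had 43.4 and 46.6 CPM in the controls against 76.6, 78.2 and 86.4 CPM in the biopsies. It showed the smallest ratio of the 7, at 1.79-fold, from 45.0 ± 2.30 CPM (SD, n = 2) to 80.4 ± 5.29 (SD, n = 3). S100A1 overlaps S100A13 in the RefSeq annotation of the pig, and S100A13 has no row in the pig table. Whether strand was used in counting is not given in the sources used here, so reads of the 2 genes cannot be told apart and the S100A1 level is uncertain. Among human symbols, S100A13 had 67 and 92 counts in the controls against 93, 152 and 245 in the biopsies.

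Over time the 7 genes took different courses. S100A1, S100A4 and S100A11 were ordered upward over 12, 24 and 48 h, as were 23.1% of all genes kept. S100A2, S100A10 and S100A14 were ordered downward, as were 22.5% of all genes, and S100A6 was in neither order. With 1 library per time there is no replicate at any time, so the only yardstick is the ratio between the 2 controls. The ratio between 12 h and 48 h exceeded it for 6 of the 7 genes, as it did for 69.8% of all genes kept, and nothing particular to the S100 genes is read from that count. S100A4 rose 2.34-fold from 12 to 48 h against 1.21-fold between its controls, and S100A10 was 1.78-fold higher at 12 h than at 48 h against 1.17-fold. S100A2 was 1.60-fold higher at 12 h than at 48 h against 1.16-fold, S100A14 1.39-fold against 1.12-fold, and S100A11 was 1.33-fold higher at 48 h against 1.03-fold. S100A1 was only 1.13-fold higher at 48 h than at 12 h against 1.08-fold between its controls. S100A6 was the exception, at 1.01-fold between 12 and 48 h against 1.24-fold between its controls.

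Some of these steps were within counting error. The ratio of 24 h to 12 h was 1.04 for S100A4 (95% interval 0.973 to 1.12, from counting error alone) and 1.02 for S100A1 (0.984 to 1.06). The ratio of 48 h to 24 h was 0.975 for S100A2 (0.927 to 1.03). The spread between biopsies of 1 time is not known. When libraries were scaled by their totals alone, 2 genes in place of 3 were ordered downward.

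**Figure D2:**
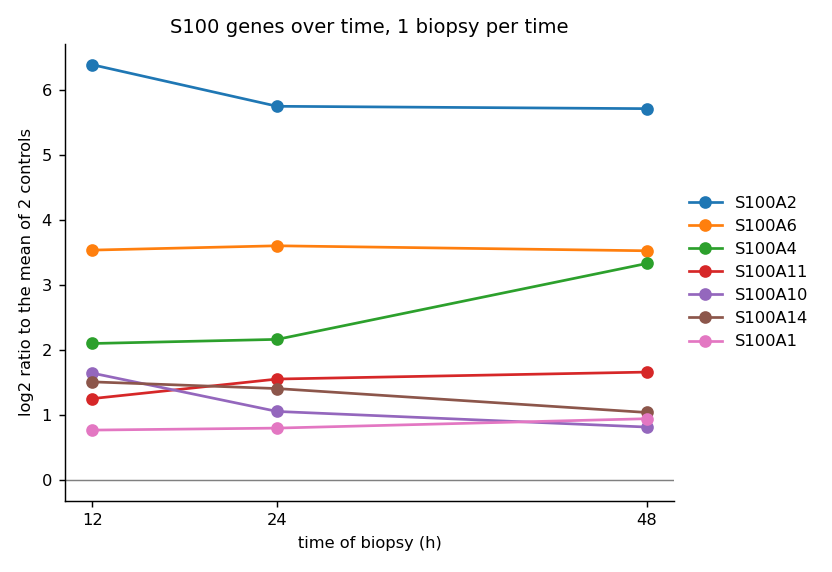
Log2 ratio of each biopsy to the mean of the 2 controls (y axis) for the 7 S100 genes at 12, 24 and 48 h (x axis), with lines joining the single biopsies. S100A2 stays at 5.71 or more, S100A4 climbs from 2.10 to 3.33, and S100A10 descends from 1.64 to 0.81.

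Among themselves, S100A10 and S100A14 had the most similar profiles. Their distance over the 5 libraries was 0.44, the Euclidean distance of log2 CPM after each gene's control mean was subtracted. S100A2 stood apart, and its closest relative on the list was S100A6 at a distance of 4.10. Over all genes kept, the 5 profiles most like S100A2 were those of SPP1 (distance 0.50), WNT7A (0.69), ARG1 (0.76), MMP7 (0.90) and FOSL1 (0.94). SPP1, encoding the secreted phosphoprotein osteopontin, was 105-fold, 56.8-fold and 61.1-fold above its control mean at 12, 24 and 48 h, where S100A2 was 83.3-fold, 53.5-fold and 52.2-fold above its own. MMP7, encoding the protease matrilysin, was 90.8-fold, 79.4-fold and 78.9-fold above. WNT7A, a Wnt ligand gene, had 0 counts in both controls and 142, 158 and 79 in the biopsies, which makes it at least 66.0-fold higher. ARG1, an arginase gene, had 0 counts in both controls and 219, 164 and 141 in the biopsies, at least 91.7-fold higher. Both bounds set the controls at 3 counts over the pair. FOSL1, which encodes a partner of JUN proteins in the AP-1 transcription factor, had 7 and 2 counts in the controls against 883, 312 and 402 in the biopsies, with a peak at 12 h as in S100A2. WNT7A, ARG1 and FOSL1 passed the filter through the biopsies alone. With so few control counts, their distances to S100A2 depend on the prior count of 2 added before the log. Likeness in 5 libraries describes these libraries alone.

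**Figure D3:**
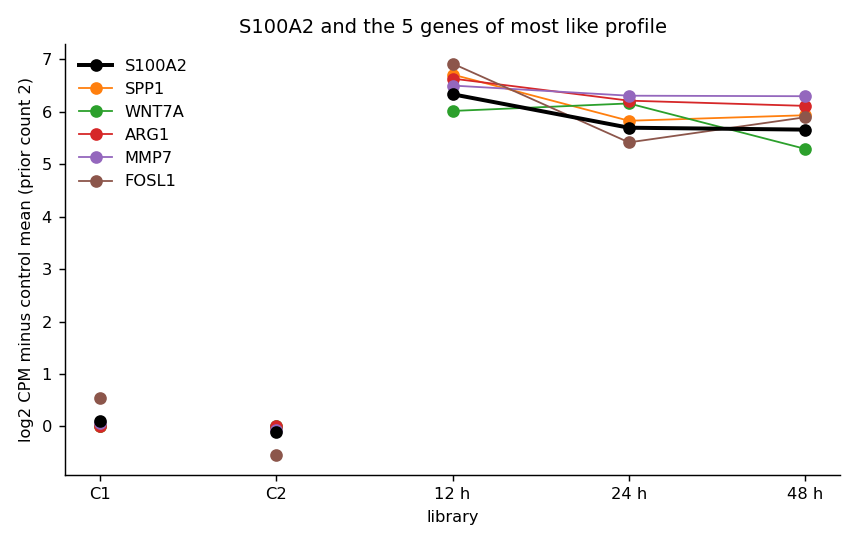
Log2 CPM minus the control mean (y axis, prior count 2) of S100A2, in black, and the 5 genes of most similar profile in the 2 controls and the biopsies at 12, 24 and 48 h (x axis). All 6 genes lie near 0 in the controls and above 5 in every biopsy.

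S100A2 is at home in stratified epithelium, so markers of urothelium and of basal or squamous epithelium were examined beside it. Of 18 such markers, 12 were in the pig table and 7 passed the filter. Their summed level was 129 and 146 CPM in the controls and 257, 217 and 203 at 12, 24 and 48 h. Most of that came from KRT14 and PERP. The basal keratin gene KRT5 had 0 counts except for 1 at 12 h, IVL of squamous cells had 0 in all 5 libraries, and KRT20 of urothelial surface cells had 0 except for 1 at 12 h. TP63, the master regulator of basal cells, had 8 and 7 counts in the controls against 5, 3 and 10 in the biopsies. By edgeR 3 of the 7 were higher, KRT14, UPK3A and UPK2, against 18.5% of all genes tested. UPK2 passed the filter through the biopsies alone, so that its call supports nothing. KRT14 rose 4.21-fold (log2 2.07 ± 0.17, SE, adjusted p = 0.000574), while UPK3A and UPK2 rest on few counts, with 42 and 20 against 147, 198 and 90 for UPK3A and 0 and 0 against 16, 15 and 2 for UPK2. Without either control replicate, 1 marker passed. The uroplakin UPK1B stood at 2.73 and 2.13 CPM in the controls against 2.51, 3.06 and 4.22 in the biopsies. The part of such cells in the S100A2 values was not tested further.

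The human table gave a second view of the same libraries. How reads that fit both genomes were assigned is not given in the sources used here, and the controls were pig kidney that was not transplanted, so their human-table counts show how many counts of a pig transcript land there. The share of a gene's counts that fell in the human table is given for each library with a 95% Wilson interval, which covers counting error only. Over 12036 genes with at least 10 counts over both tables in every library, the median share was 15.9% and 14.9% in the controls against 19.2%, 18.4% and 20.4% in the biopsies. The share exceeded both controls in every biopsy for 59.9% of these genes and for 3 of the 7 S100 genes. Nothing particular to the S100 genes is read from that count.

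S100A4 stood far from the other 6. Its human share was 18.7% (15.1 to 22.8) and 23.8% (19.3 to 29.0) in the controls and 62.3% (60.8 to 63.8), 58.0% (56.4 to 59.6) and 54.8% (53.7 to 56.0) in the biopsies. That is 72 and 71 human-table counts in the controls against 2461, 2159 and 3928 in the biopsies, the latter more than the 1489, 1565 and 3238 counts in the pig table. S100A11 had a human share of 0.871% (0.645 to 1.17) and 0.663% (0.456 to 0.963) in the controls and 7.23% (6.82 to 7.66), 5.35% (5.02 to 5.69) and 8.05% (7.66 to 8.46) in the biopsies. Its human-table counts went from 42 and 27 to 1059, 950 and 1463. S100A6 shifted little, from 12.8% and 14.3% to 16.2%, 15.8% and 15.7%. Its share no longer exceeded both controls when each table was scaled by TMM, which left 2 genes of the 7.

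By raw counts, the shares of the remaining 4 genes stayed within the range of the controls in every biopsy. S100A10 had 19.8% and 20.7% in the controls against 20.0%, 20.5% and 20.6% in the biopsies, while its human-table counts rose from 4436 and 4778 to 18422, 12737 and 9988. S100A1 had 16.9% and 17.9% against 17.1%, 17.5% and 17.4%, and S100A14 had 12.4% and 15.3% against 14.01%, 13.1% and 13.9%. S100A2 had 19.7% (11.9 to 30.8) and 11.1% (4.84 to 23.5) in the controls, where 13 and 5 counts make the share imprecise, and 13.1%, 11.8% and 12.0% in the biopsies. For these 4 genes the human-table counts moved nearly in proportion to the pig-table counts. With each table scaled by TMM, their shares instead lay below both controls in every biopsy. S100A10 then had 51.1% and 53.0% against 46.2%, 48.6% and 46.4%, and S100A2 51.0% and 35.1% against 34.1%, 32.8% and 31.2%. The proportion of all genes doing so under that scaling is not known.

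**Figure D4:**
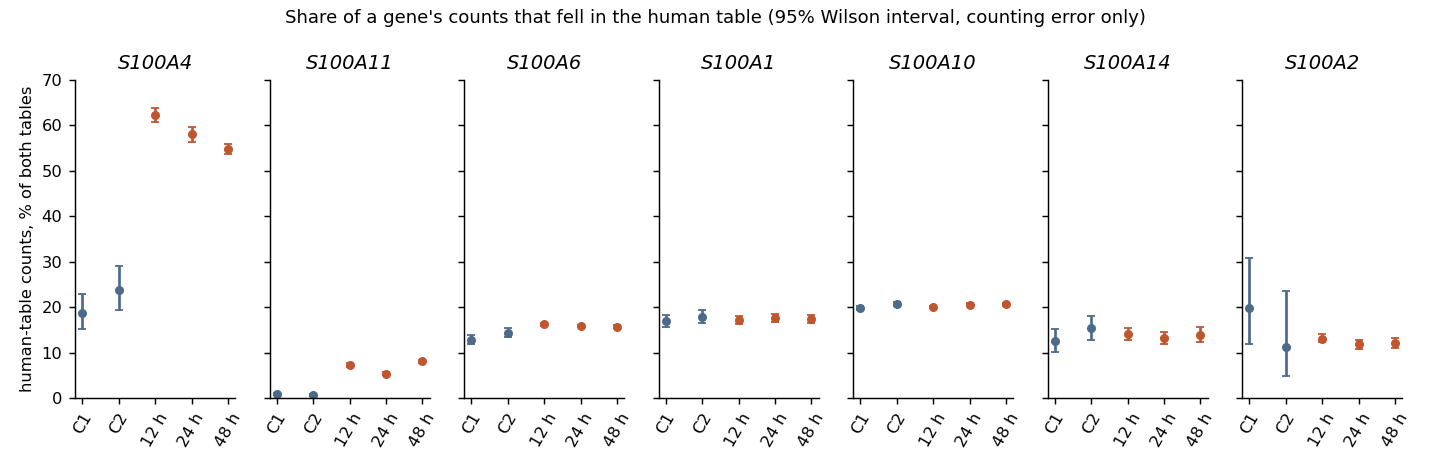
Human-table counts as a percent of the counts in both tables (y axis) for each of the 7 S100 genes in the 2 controls (C1, C2) and the biopsies at 12, 24 and 48 h, with 95% Wilson intervals. S100A4 moves from 18.7% and 23.8% to between 54.8% and 62.3%, S100A11 from below 1% to between 5.35% and 8.05%, and the other 5 genes remain between 11.1% and 20.7%.

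Leukocyte genes of the human table were also higher in the biopsies. The 17 listed leukocyte markers summed to 639 and 584 human-table counts in the controls against 27054, 23207 and 33370 in the biopsies. Of the 12 kept, 12 lay above both controls in every biopsy, where 32.7% of all human symbols kept did. Of the 17 listed, 5 had 0 counts in both controls. Markers this scarce in the controls can pass the filter through the biopsies alone, so nothing is read from the 12 of 12. The summed marker counts were highest at 48 h and lowest at 24 h. Human counts of S100A4 had the same order, at 2461, 2159 and 3928 for 12, 24 and 48 h. The S100A4 share, which also depends on the pig counts, was instead highest at 12 h and lowest at 48 h. The S100A11 share followed the order of the markers, at 7.23%, 5.35% and 8.05%. The S100A6 share did not, at 16.2%, 15.8% and 15.7%. With a single biopsy per time, nothing is read from these orders. The cell source of the human-table counts was not tested. The common leukocyte gene PTPRC had 82 and 67 human-table counts in the controls against 2104, 1212 and 2814 in the biopsies, against 1146 and 1064 and then 925, 956 and 1532 in the pig table. S100A8 and S100A9, the calgranulin genes of neutrophils and monocytes, had 2 and 1 and 1 and 1 human-table counts in the controls. In the biopsies they had 4287, 2486 and 2586 and 7389, 4550 and 5107. Pig-table counts of S100A8 were 2 and 0 in the controls against 10, 22 and 15 in the biopsies. How many pig-table counts of S100A4 came from human RNA was not tested. S100A16, an S100 gene of broad expression, had 163 and 147 human-table counts in the controls against 394, 448 and 405 in the biopsies. After scaling this was 11.6 and 12.2 against 18.8, 22.6 and 20.1 CPM of the human table, 1.72-fold by means. Without a pig-table row its human share cannot be given.

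The rest of the S100 family was sparse. Of 20 further S100 and S100-fused genes, 9 had a row in the pig table and 7 passed the filter. S100A3, S100A5, S100A8 and S100A12 had fewer than 10 counts in each control and passed through the biopsies, so no count over the list is given as support and their values are given with no test. S100A5, whose gene lies between S100A4 and S100A6, had 5 and 3 counts in the controls against 83, 60 and 76 in the biopsies. S100G, the calcium carrier calbindin-D9k of gut and distal nephron, had 0.251 and 0.403 CPM against 1.202, 3.26 and 2.92 (7.51-fold, log2 2.91 ± 0.55, SE, edgeR adjusted p = 0.00741). It no longer passed without control replicate 1 or 2 (adjusted p = 0.0805 and 0.0651). S100A3 had 0 and 0 counts in the controls against 16, 2 and 18 in the biopsies, at least 6.42-fold higher with the controls at 3 counts over the pair. S100A12 had 1 and 2 counts in the controls against 5, 37 and 10 in the biopsies. S100Z had 12 and 2 counts in the controls against 25, 19 and 22 in the biopsies. It needed the biopsies to pass the filter, so it gets no test here either. S100PBP, which encodes a binding protein of S100P, held 12.3 and 11.2 CPM against 9.11, 8.998 and 11.4 and did not pass (edgeR adjusted p = 0.275). CRNN and TCHHL1, S100-fused genes of squamous epithelium, were not tested because of low counts, with CRNN at 0 in both controls and TCHHL1 at 0 in all 5 libraries.

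Partners of S100 proteins were taken as a list of 48 genes, of which 41 had a pig row and 38 could be tested. In the xenograft against the controls, 14 rose and 3 fell by edgeR, against 18.5% and 19.0% of all genes tested. The list's median log2 fold change was 0.28 against 0.03 over all genes. Rising partners numbered 8 and 7 when control replicate 1 or 2 was left out, and 23 with library totals alone. Falling partners numbered 1 and 0 in those leave-one-out fits, and 5 both with the 12 h biopsy left out and with DESeq2.

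Annexins and a protease gene were among the partners that rose. ANXA2, the partner of S100A10, was at 75.7 and 78.9 CPM in the controls against 1139, 782 and 883 CPM in the biopsies, with the highest value at 12 h. It rose 12.1-fold (log2 3.596 ± 0.23, SE, adjusted p = 0.000267). S100A10 rose far less than ANXA2: there were 3.98 and 4.46 S100A10 counts per ANXA2 count in the controls and 0.895, 0.866 and 0.650 at 12, 24 and 48 h. ANXA5, which binds phosphatidylserine, rose 5.23-fold (log2 2.39 ± 0.20, adjusted p = 0.000633). ANXA1, the partner of S100A11, rose 4.79-fold, from 70.1 and 56.6 CPM to 318, 214 and 378 (log2 2.26 ± 0.27, adjusted p = 0.00148). S100A11 counts per ANXA1 count were 1.14 and 1.37 in the controls against 0.590, 1.08 and 0.658 in the biopsies, so all 3 biopsies lay below both controls. ANXA6 rose 1.90-fold (adjusted p = 0.00414), and ANXA11 stood at 1.01-fold (adjusted p = 0.966). PLAT, encoding tissue plasminogen activator, which the complex of annexin A2 and S100A10 also binds, rose 7.20-fold, from 17.5 and 9.77 CPM to 97.3, 73.7 and 124 (log2 2.85 ± 0.34, adjusted p = 0.00187). TPM1, a tropomyosin gene, rose 3.71-fold and FKBP5, an immunophilin gene induced by glucocorticoids, 3.72-fold.

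CACYBP, which encodes the calcyclin-binding protein that S100A6 attaches to, was at 77.9 and 75.4 CPM in the controls against 114, 89.7 and 79.9 in the biopsies. Its log2 change of 0.30 ± 0.17 missed the threshold (adjusted p = 0.194), which library totals alone passed (0.00327). S100A6 counts per CACYBP count went from 0.828 and 1.06 in the controls to 7.31, 9.75 and 10.4 in the biopsies. AGER, encoding a cell surface receptor for secreted S100 proteins, was scarce, at 0.335 and 0.346 CPM in the controls against 0.207, 0.330 and 0.521 in the biopsies (adjusted p = 0.947). The partners that fell were the sodium channel gene SCN10A (3.64-fold lower, adjusted p = 0.0118), the plasminogen gene PLG (2.88-fold lower, 0.0144) and the ubiquitin ligase subunit gene SKP1 (1.68-fold lower, 0.00626). SCN10A and PLG no longer passed without control replicate 1 (0.0915 and 0.124) or 2 (0.0810 and 0.0785), nor SKP1 without control replicate 2 (0.0835). SKP1 also failed to pass with library totals alone (0.270). Over time, 0 of the 38 partners rose or fell within the xenograft by edgeR's slope, against 3.34% and 0.983% of all genes tested. At an unadjusted p under 0.05, 2 rose and 3 fell, and DESeq2 called 0 higher and 2 lower. With the 12, 24 or 48 h biopsy left out, 1 partner rose in each fit, and 2, 5 and 2 fell.

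**Figure D5:**
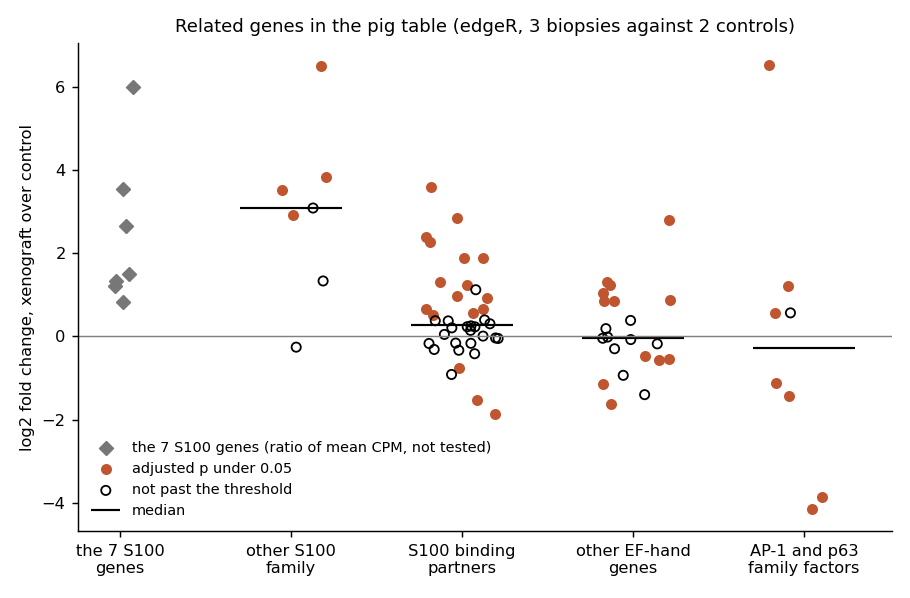
Log2 fold change of the xenograft over the controls (y axis) for the 7 S100 genes (grey diamonds, not tested) and for 4 lists of related genes, with filled circles past an adjusted p of 0.05 and bars at the list medians. Partners spread mainly upward, with a median of 0.28, and other EF-hand genes spread both ways, with a median of -0.04. S100A3, at the top of the other S100 genes, has 0 counts in both controls, so that its fitted value is not a bound. S100A5, S100A8, S100A12, KCNK3, TNNC1 and FOSL1 also passed the filter through the biopsies alone. S100Z, with 12 and 2 counts in the controls, needed the biopsies to pass it.

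Calcium-binding genes of other EF-hand families were also examined. Of 31 listed, 24 had a pig row and 21 passed the filter, with 7 higher and 5 lower by edgeR, against 18.5% and 19% of all genes tested, and a median log2 fold change of -0.04. CAPN2, encoding the large subunit of a calpain protease, rose 2.49-fold (log2 1.31 ± 0.15, SE, adjusted p = 0.00121). CALU, encoding calumenin of the secretory pathway, rose 2.35-fold (log2 1.23 ± 0.17, adjusted p = 0.00242), and EFHD1, a mitochondrial EF-hand gene, 2.05-fold (log2 1.04 ± 0.11, adjusted p = 0.00108). TNNC1, a troponin gene, is among the 7 but passed the filter through the biopsies alone, with 3 and 7 counts in the controls against 69, 54 and 14, and gets no test here. CALM3, a calmodulin gene, fell from 350 and 391 CPM to 117, 186 and 203 (log2 -1.14 ± 0.24, adjusted p = 0.0105). Leaving out control replicate 1 (0.0607) or 2 (0.0979) ended that call. CALML4 of the brush border was 3.09-fold lower (adjusted p = 0.0338), but not past the threshold on leaving out control replicate 1 (0.105) or 2 (0.165) or the 24 h biopsy (0.0586), or with library totals (0.193). CETN3 and PEF1 were 1.49-fold and 1.45-fold lower (adjusted p = 0.0140 and 0.0162), with neither past the threshold without control replicate 2 (0.135 and 0.171) or with library totals (0.750 and 0.882), nor CETN3 without control replicate 1 (0.0734). CALB1, the calbindin gene of the distal convoluted tubule, was at 1847 and 1563 CPM in the controls against 967, 3264 and 830 in the biopsies, with the 24 h biopsy above both controls and the others below. Without either control 3 of these genes were higher, and 1 and 0 lower.

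Transcription factor genes of the AP-1 and p63 families were examined too. AP-1 factors are dimers of FOS-type and JUN-type proteins. Of 12 listed, 8 were tested, with 3 higher and 4 lower by edgeR, against 18.5% and 19% of all genes tested. FOSL1, with the counts given above, is among the 3 but passed the filter through the biopsies alone and gets no test here. FOSL2 rose 2.31-fold (log2 1.21 ± 0.23, SE, adjusted p = 0.00779), not past the threshold without control replicate 2 (0.0924). FOS was 17.7-fold lower, from 247 and 146 CPM to 14.5, 11.1 and 7.61, and FOSB 14.4-fold lower (adjusted p = 0.00689, but 0.0582 with library totals). JUNB and ATF3 were 2.18-fold and 2.70-fold lower (adjusted p = 0.00895 and 0.0396). JUNB missed the threshold with control replicate 1 left out (0.0873), and ATF3 with control replicate 1 (0.172), 2 (0.131) or the 24 h biopsy (0.106) left out, with library totals (0.213) or with no filter (0.0645). TP73 did not pass (adjusted p = 0.325). Within the xenograft ATF3 fell with time (log2 -0.95 per 24 h, adjusted p = 0.0298), from 48.9 CPM at 12 h to 24.2 and 17.2, and the other 7 did not pass, where 0.983% of all genes fell. With the 12, 24 or 48 h biopsy left out, 0, 3 and 3 of the 8 fell. With DESeq2 and with library totals alone, 2 fell.

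All 8 listed genes lie on a single pig chromosome in the RefSeq annotation of Sscrofa11.1. S100A1, S100A13, S100A14, S100A16, S100A2, S100A3, S100A4, S100A5 and S100A6 follow each other with no other protein-coding gene between them. S100A11 and S100A10 neighbour each other at the far side of a stretch of genes for the outer layers of skin. Other genes between and within 10 protein-coding genes on either side were examined, a choice made after the S100 values were seen. Of 16 such genes that passed the filter and were not S100 genes, 6 were above both controls in every biopsy and 5 below, where 33.7% and 32.6% of all genes kept were. They had log2 ratios of mean CPM from -2.61 to 2.39 and a median of 0.09. CHTOP, the gene before S100A1, was at a log2 ratio of 0.24 and THEM5, the gene after S100A10, at 2.39. The 7 S100 genes ranged from 0.84 to 5.98.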

How the data were processed

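Kidney core biopsies were homogenised, and ribosomal RNA was depleted from total RNA, per the labels' protocols. The authors deposited 2 tables of raw counts, by gene symbol, 1 on a pig and 1 on the human genome. The submitters' processing notes name hg38. Aligner, counter, use of strand and annotation are not given in the sources used here. Y-linked human genes were removed first. No column lacked a sample.

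The analysis used edgeR 4.0.16 under R 4.3.3: TMM scaling, filterByExpr (minimum count 10, minimum total 15), quasi-likelihood tests with robust priors and Benjamini-Hochberg adjustment at 0.05 over all 12620 genes kept. Each SE was obtained from the log2 fold change and its F. All 5 libraries entered each fit. The slope over time was fitted within the xenograft per 24 h. Scripts were tested on simulated data. DESeq2 1.42.0, other scalings, no filter and leaving out each library were alternatives.

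The S100 genes and all lists were chosen with earlier results of these data known. Named genes were every S100 gene in the pig table, the transcription factors tested, the 6 and 4 partners and the 4 and 4 EF-hand genes with the largest significant rise and fall, 4 fixed partners (ANXA2, AHNAK, CACYBP and AGER, of which AHNAK had no row), the leading or singled-out markers, and the 5 genes nearest to S100A2. CALB1 was named after its values were seen. Some genes that these rules name are not reported here. The planned comparison of S100 promoters and proteins was not made.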

Additional observations from a re-analysis of the deposited data

How the results depend on the processing

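All 7 S100 genes stayed above the controls under each scaling and filter. The same held with any library left out. It nearly had to, because every biopsy already lay above both controls, so nothing is read from it. Over all these settings, log2 ratios ran from 5.72 to 6.45 for S100A2 and 3.41 to 4.05 for S100A6. They ran from 2.13 to 3.14 for S100A4 and 0.78 to 1.33 for S100A1. Library totals alone raised the median of all genes from 0.03 to 0.51, so the upper ends lie near the reported values once that shift is taken off. With library totals 5238 genes were higher and 970 lower, against 2332 and 2402 (84.4% higher in place of 49.3%), 23 partners were higher, and 2 transcription factors and 1 EF-hand gene were lower. S100PBP changed sign there (log2 0.23, adjusted p = 0.487), as did AGER without the 48 h biopsy (adjusted p = 0.589), within a range of -0.34 to 0.32 over the fits that each leave out 1 library. With DESeq2 5 partners were lower, and 265 genes fell with time against 124. With each table scaled by TMM, 2 S100 genes kept a human share above both controls. The shares of S100A1, S100A2, S100A10 and S100A14 then lay below both controls in every biopsy.

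With 1 library left out, genes higher ranged from 464 to 2633 and genes lower from 727 to 2633, and genes rising with time from 349 to 1728 and falling from 83 to 1037. Partners ranged from 7 to 14 higher and 0 to 5 lower, EF-hand genes from 3 to 7 and 0 to 7, and transcription factors from 1 to 3 and 2 to 4. The lowest counts came without a control. A slope without a biopsy takes its spread from the control pair alone. No paired analysis was possible because the biopsies carry no replicate number that the controls share. Depth limits S100A2 in the controls (53 and 40 counts) and the scarce S100 genes.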
